A study of Rattus norvegicus with 9 samples.

Results

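Transcripts of 7 genes that set the output of mTORC1 were followed in the gastrocnemius, a calf muscle, of male Wistar rats of 250 g. They are Ddit4, Eif4ebp1, Sesn1, Tsc1, Tsc2, Mtor and Rptor, and all probe sets that the platform annotation assigns to a single one of these symbols were taken, 9 of the 31042 probe sets other than controls and 7 of the 14217 genes so annotated. Sesn1 and Tsc1 have 2 probe sets each and the other 5 genes 1 each. Ddit4, Eif4ebp1, Sesn1, Tsc1 and Tsc2 encode proteins that restrain mTORC1 or its output, whereas Mtor and Rptor encode the kinase and the scaffold of the complex itself. Rats in the 3 groups of 3 animals received dexamethasone plus testosterone, dexamethasone alone, or vehicle (propylene glycol) for 7 days from implanted Alzet pumps, with 1 array per animal. Dexamethasone, a synthetic glucocorticoid, was given at 0.7 mg/kg/day in both hormone groups. The testosterone dose is 28 mg/kg/day in the sample labels and 20 mg/kg/day in the series design, and the discrepancy was not settled. The labels name no castration or other manipulation in any of the 3 groups. The questions were how dexamethasone shifted these transcripts and where they stood when testosterone was added.

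mTORC1 is a protein kinase complex that drives protein synthesis when growth factors and amino acids are plentiful. It phosphorylates the S6 kinases and 4E-BP1, the protein product of Eif4ebp1, which in its unphosphorylated form holds the cap-binding factor eIF4E away from mRNA. The TSC complex, built on the products of Tsc1 and Tsc2, switches off the small GTPase Rheb that activates mTORC1. The Ddit4 product, REDD1, acts through the TSC complex, and sestrins such as the Sesn1 product act on the amino acid branch of the pathway. In skeletal muscle, glucocorticoids are known to lower protein synthesis and to induce Ddit4. The arrays report transcripts, and neither mTORC1 activity nor any protein was measured.

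The arrays fell into 3 technical subsets, defined from control probe sets and deposited scale alone. In dexamethasone plus testosterone replicate 1, dexamethasone replicate 1 and vehicle replicates 1 and 3 the trimmed mean signal was 113.0 to 206.7, and in the other 5 arrays it was 500 within 1%. Of those 5, dexamethasone plus testosterone replicate 3 and dexamethasone replicate 3 had Gapdh control signals in a 3' to 5' ratio of 6.22 and 4.94, against 1.06 to 1.17 on the other 7 arrays. These 2 arrays are called the high-ratio arrays, and they include no vehicle animal. Of 10 muscle fibre markers 9 were measured, all at 13.34 or more on the log2 scale on every array. Their summed signal was 17.99 to 18.03 in the combination group, 17.89 to 17.91 under dexamethasone and 17.94 to 17.99 in vehicle muscle (log2 scale).

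The upstream bases of Ddit4 and Sesn1 are shown because transcripts of these genes rose together under dexamethasone. Both lie on chromosome 20 of the rat build GRCr8, and RefSeq gives the 250 bases before each start site as follows, 5' to 3' along the gene, with GC boxes (GGGCGG, on the other strand CCGCCC) and CCAAT boxes (CCAAT, on the other strand ATTGG) in capitals.
Ddit4, chr20:28437038-28437287, minus strand: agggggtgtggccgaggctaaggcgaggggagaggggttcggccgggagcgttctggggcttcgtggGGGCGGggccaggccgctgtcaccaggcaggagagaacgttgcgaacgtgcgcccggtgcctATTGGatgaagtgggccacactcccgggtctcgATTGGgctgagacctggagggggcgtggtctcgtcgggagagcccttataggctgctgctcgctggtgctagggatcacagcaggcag
Sesn1, chr20:46948469-46948718, plus strand: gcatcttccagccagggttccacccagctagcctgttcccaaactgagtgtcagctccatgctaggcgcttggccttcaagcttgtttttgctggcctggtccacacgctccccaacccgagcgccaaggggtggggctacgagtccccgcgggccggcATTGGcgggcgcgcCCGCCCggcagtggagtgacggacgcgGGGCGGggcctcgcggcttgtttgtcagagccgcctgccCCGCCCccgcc
The Ddit4 stretch held 1 GC box and 2 CCAAT boxes, and the Sesn1 stretch 3 GC boxes and 1 CCAAT box, with no overlap between matches. These motifs are not particular to the risen genes. The Mtor stretch also held both kinds of box and the Tsc2 stretch a GC box, while that of Tsc1 held neither. The Ddit4 and Sesn1 stretches were 67.6% and 69.6% GC, above the upper quartile of all promoters, 60%. Of 33469 rat promoters of this length, 30.5% held a GC box and 34% a CCAAT box. These 2 motifs were added after the sequences had been read. Neither stretch, nor those of Tsc1, Tsc2 and Mtor, held the palindromic glucocorticoid response element searched for (AGAACA, any 3 bases, TGTTCT, found in 0.012% of promoters) or AGAACA alone (17.5%). The same was true of the E-box CACGTG (5.59%), the ATF4 motif TGATGNAA (3.4%) and the FoxO motif GTAAACA (3.21%), each searched on both strands. A search of so short a window says nothing of more distant sites. Promoters of 5 of the 7 genes were matched in the table, and those of Eif4ebp1 and Rptor were not analysed here.

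Dexamethasone raised 3 of the 9 probe sets, those of Ddit4, Eif4ebp1 and Sesn1, and lowered 0. Over all 18625 probe sets tested, 0.569% rose and 0.483% fell (limma, Benjamini-Hochberg adjusted p under 0.05). That is 106 higher and 90 lower, which became 107 higher and 23 lower when array medians were set equal in place of quantile normalization. The other 6 member probe sets did not pass, and all 9 were bright enough to be tested.

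Ddit4 had the largest change of the 7 genes. Its normalized signal on the log2(intensity + 16) scale was 7.88, 8.94 and 7.75 in combination replicates 1, 2 and 3, 10.26, 11.51 and 10.22 under dexamethasone, and 7.24, 7.23 and 7.76 in vehicle muscle. The dexamethasone arrays thus lay clear of all others, with a gap of 2.45 to the highest vehicle array, while the combination and vehicle arrays met. Among the dexamethasone animals replicate 2 was the highest, and among the combination animals it was again replicate 2. The group means were 10.66 ± 0.73 under dexamethasone and 7.41 ± 0.30 in vehicle muscle (SD, n = 3 each). Ddit4 was thus 9.52-fold higher under dexamethasone than in vehicle muscle, a log2 change of 3.25 ± 0.42 (SE, 95% interval 2.31 to 4.20, limma adjusted p = 0.0206). It ranked 14th by size of change and 21st by p among the probe sets tested.

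Eif4ebp1, the translational repressor downstream of mTORC1, followed the same order of groups. Its signal was 10.37, 11.31 and 10.84 in the combination animals, 13.46, 12.19 and 12.17 under dexamethasone, and 10.05, 10.44 and 9.93 in vehicle muscle. Dexamethasone replicate 1 stood highest here, although it was not the highest for Ddit4, and every dexamethasone array lay at least 1.74 above every vehicle array. The means were 12.61 ± 0.74 under dexamethasone and 10.14 ± 0.27 in vehicle muscle (SD, n = 3 each), a 5.53-fold difference (log2 change 2.47 ± 0.38 SE, 95% interval 1.61 to 3.32, limma adjusted p = 0.0306). By size of change it ranked 58th.

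Sesn1, a stress-induced sestrin, changed by less but with the smallest spread of the 3. Its probe set 1372248_at read 9.92, 9.78 and 9.87 in the combination animals, 10.71, 11.05 and 10.70 under dexamethasone, and 9.83, 9.48 and 9.60 in vehicle muscle. Dexamethasone and vehicle arrays were separated by a gap of 0.87. With means of 10.82 ± 0.20 under dexamethasone and 9.64 ± 0.18 in vehicle muscle (SD, n = 3 each), it was 2.27-fold higher (log2 change 1.18 ± 0.19 SE, 95% interval 0.76 to 1.60, limma adjusted p = 0.0324). It ranked 750th by size of change and 65th by p among the probe sets tested.

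The other Sesn1 probe set, 1395809_at, did not follow. It read 8.19, 7.46 and 5.51 in the combination animals, 8.25, 9.20 and 4.28 under dexamethasone, and 7.69, 8.49 and 7.85 in vehicle muscle. The lowest values, 5.51 and 4.28, came from the 2 high-ratio arrays. Its log2 change under dexamethasone was -0.77 ± 1.14 (SE, 95% interval -3.34 to 1.81, limma adjusted p = 0.796). Without the 2 high-ratio arrays it was 0.68 (limma adjusted p = 0.399), so the sign of this probe set turned with them.

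**Figure D1:**
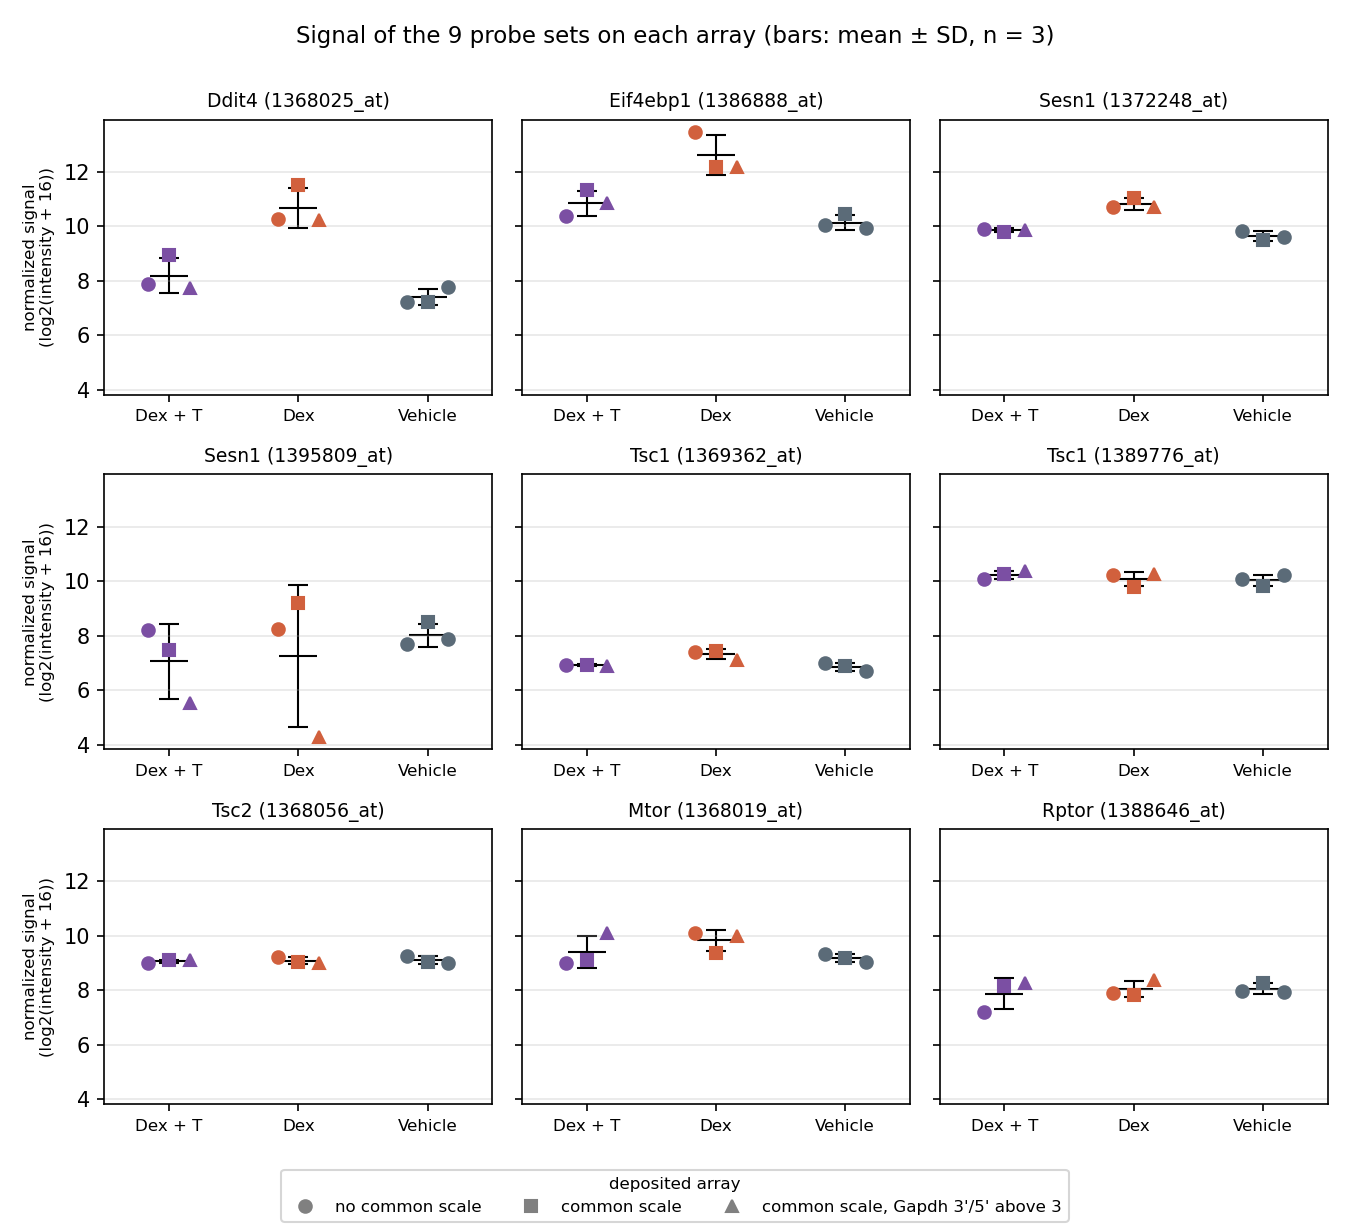
Normalized signal of each of the 9 probe sets (y axis, log2(intensity + 16)) on the 9 arrays, by group, with the mean and SD of 3 animals as bars and marker shapes for the technical subsets. Dexamethasone arrays lie between 10.22 and 11.51 for Ddit4, above all combination and vehicle arrays, and the 2 high-ratio arrays are lowest for Sesn1 1395809_at at 4.28 and 5.51.

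For the 2 genes of the TSC complex no probe set passed. Tsc1 probe set 1369362_at read 6.93, 6.92 and 6.88 in the combination animals, 7.40, 7.45 and 7.11 under dexamethasone, and 6.99, 6.86 and 6.69 in vehicle muscle. The dexamethasone arrays again lay above the others, by a gap of 0.12 over vehicle, but the log2 change of 0.47 ± 0.18 (SE) had a limma adjusted p of 0.248. The other Tsc1 probe set, 1389776_at, ranged over 10.08 to 10.37 in the combination animals, 9.80 to 10.25 under dexamethasone and 9.81 to 10.21 in vehicle muscle. Its groups overlapped, and its log2 change was 0.06 ± 0.20 (SE, limma adjusted p = 0.918). Tsc2, which carries the activity against Rheb, varied little, with 8.98 to 9.10 in the combination animals, 8.98 to 9.22 under dexamethasone and 9.02 to 9.27 in vehicle muscle. Its log2 change was -0.02 ± 0.17 (SE, 95% interval -0.40 to 0.37, limma adjusted p = 0.973). That interval lies below the whole interval of Sesn1 1372248_at, whose lower bound is 0.76, and so does that of Tsc1 1389776_at (-0.40 to 0.52). The other probe sets of these genes show no such separation. The interval of Tsc1 1369362_at (0.07 to 0.87) overlaps that of Sesn1 1372248_at, and the interval of Sesn1 1395809_at (-3.34 to 1.81) covers those of Tsc2 and Tsc1.

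The kinase gene Mtor read 8.998, 9.11 and 10.09 in the combination animals, 10.11, 9.38 and 9.999 under dexamethasone, and 9.35, 9.19 and 9.02 in vehicle muscle. Both high-ratio arrays were among its 3 highest, and the dexamethasone and vehicle groups were separated by only 0.03. The log2 change was 0.65 ± 0.32 (SE, 95% interval -0.07 to 1.36, limma adjusted p = 0.38). Within the arrays without common scale it was 0.93, and within the common-scale arrays of ordinary ratio 0.19. Rptor, the gene of the scaffold raptor, ranged over 7.21 to 8.27 in the combination animals, 7.84 to 8.38 under dexamethasone and 7.92 to 8.28 in vehicle muscle, with groups that overlapped. Its log2 change was -0.01 ± 0.30 (SE, 95% interval -0.69 to 0.66, limma adjusted p = 0.987).

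By overlap of arrays, 5 of the 9 probe sets had every dexamethasone array above every vehicle array (Ddit4, Eif4ebp1, Sesn1 1372248_at, Tsc1 1369362_at and Mtor) and 0 had every array below. Of all probe sets tested, 12.5% lay wholly above and 10.4% wholly below. The median log2 change of the 9 was 0.47, the value of Tsc1 1369362_at, beside 0.01 over all probe sets tested. The members were chosen with earlier results of these data known. This and the other comparisons of the 9 with all probe sets are therefore descriptions only.

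**Figure D2:**
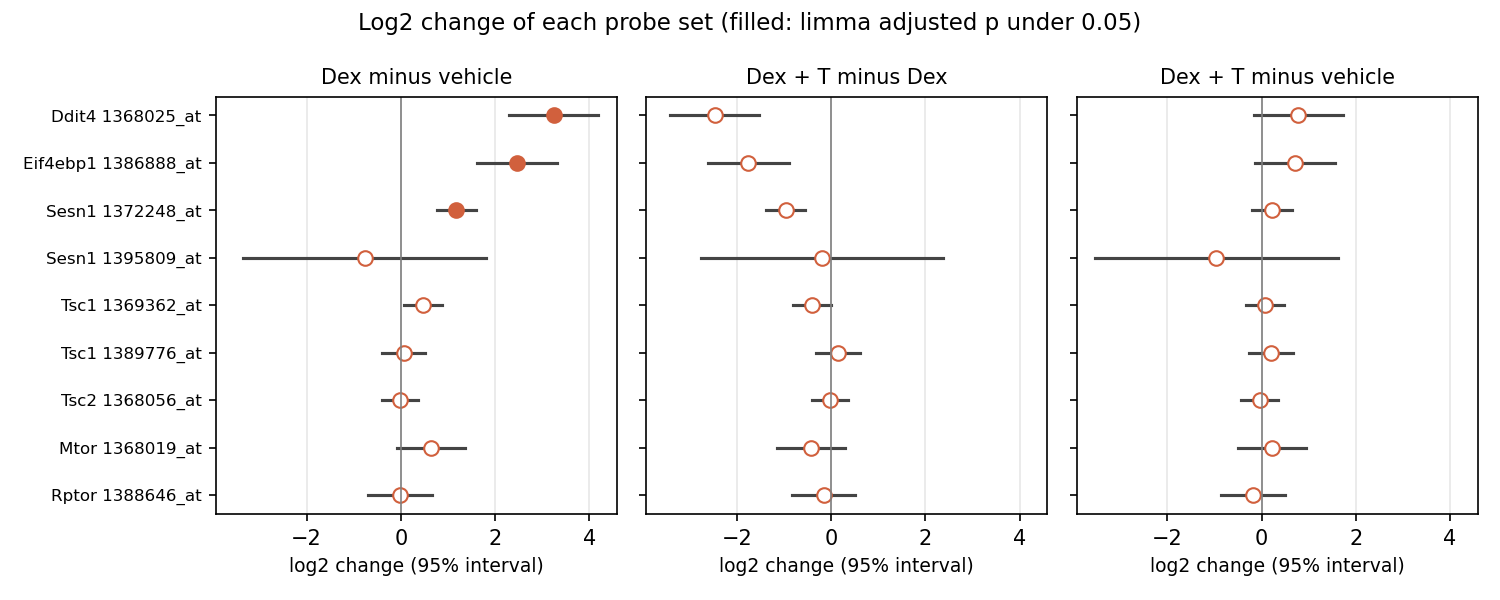
Log2 change of each probe set (x axis) with its 95% interval in the 3 comparisons, filled where the limma adjusted p was under 0.05. Under dexamethasone the intervals of Ddit4 (2.31 to 4.20), Eif4ebp1 (1.61 to 3.32) and Sesn1 1372248_at (0.76 to 1.60) lie above 0. So does that of Tsc1 1369362_at (0.07 to 0.87), which did not pass. In the combination group against vehicle all 9 intervals include 0.

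For Ddit4, Eif4ebp1 and Sesn1 1372248_at every dexamethasone array lay above every vehicle array. A rise within each technical subset that holds both groups was therefore fixed in advance. The sizes set 1 dexamethasone array against 2 vehicle arrays without common scale, and 1 against 1 among common-scale arrays of ordinary ratio. For Ddit4 the change was 2.76 within the arrays without common scale and 4.28 within the common-scale arrays of ordinary ratio. Eif4ebp1 changed by 3.47 and 1.75 in these subsets, and Sesn1 1372248_at by 1.00 and 1.57. With the subset as a block, the limma adjusted p stayed under the threshold for all 3. With the replicate number as a block, Ddit4 passed (limma adjusted p = 0.0451), whereas Eif4ebp1 (0.0595) and Sesn1 1372248_at (0.0599) did not. The calls themselves did not hold without some of the arrays, and this loss was not particular to these 3. Over all 18625 probe sets tested, calls numbered 196 as reported and 13 with the replicate block. They numbered 2, 1 and 1 without vehicle replicates 1, 2 and 3, and 6 and 13 without dexamethasone replicates 1 and 2. Without combination replicate 2 they numbered 52. Ddit4 no longer passed without vehicle replicate 1, 2 or 3 (limma adjusted p = 0.101, 0.0954 and 0.104) or without dexamethasone replicate 1 or 2 (0.0651 and 0.0538), at log2 changes of 2.84 to 3.46. For Eif4ebp1 the same omissions gave adjusted p of 0.11, 0.0954 and 0.155 for the vehicle replicates and 0.0742 and 0.0602 for the dexamethasone replicates. For Sesn1 they gave 0.101, 0.128, 0.155, 0.0887 and 0.0756, and omitting combination replicate 2 gave 0.0581. Eif4ebp1 and Sesn1 also missed the threshold with no filter on dim probe sets (limma adjusted p = 0.056 and 0.0673) and with a pseudocount of 1 (0.0532 each), and Sesn1 in a fit of the 2 groups alone (0.0604).

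Marker signals of some other cell types did not overlap between the dexamethasone and vehicle arrays. Of all single probe sets tested, 12.5% lay wholly above vehicle and 10.4% wholly below. The summed signal of 8 fibroblast markers was 12.15 to 14.01 under dexamethasone and 14.78 to 15.41 in vehicle muscle (log2 scale), with 1 of the 8 past the threshold, lower. The 5 measured endothelial markers of 6 summed to 10.67 to 10.998 under dexamethasone and 11.17 to 11.41 in vehicle muscle, with 0 past the threshold. For the 2 measured erythrocyte markers of 3 the sums were 10.18 to 12.17 under dexamethasone and 12.39 to 12.91 in vehicle muscle, also with 0 past it. Cdh15, the 1 satellite cell marker of 3 that was measured, stood at 9.12 to 9.72 under dexamethasone and 7.66 to 8.60 in vehicle muscle and did not pass. Macrophage, adipocyte and Schwann cell sums overlapped between these groups. The part of such cells in the changes of Ddit4, Eif4ebp1 and Sesn1 was not tested, and in bulk muscle fewer cells of a type and less RNA per cell cannot be told apart.

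Adding testosterone to dexamethasone was accompanied by lower signals of the same 3 genes, none of which passed the threshold over all probe sets. Of the 9 probe sets 0 rose and 0 fell, where 0.0698% of all probe sets rose and 0.043% fell (limma, and 4 of the 9 had an unadjusted p under 0.05, where 11% of all did). Ddit4 averaged 8.19 ± 0.65 in the combination group and 10.66 ± 0.73 under dexamethasone alone (SD, n = 3 each), a log2 difference of -2.47 ± 0.42 (SE, 95% interval -3.42 to -1.53, limma adjusted p = 0.0808). Eif4ebp1 averaged 10.84 ± 0.47 in the combination group and 12.61 ± 0.74 under dexamethasone (log2 difference -1.76 ± 0.38 SE, 95% interval -2.62 to -0.91, limma adjusted p = 0.116). Sesn1 1372248_at averaged 9.85 ± 0.07 in the combination group and 10.82 ± 0.20 under dexamethasone (log2 difference -0.97 ± 0.19 SE, 95% interval -1.38 to -0.55, limma adjusted p = 0.0959).

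The combination and dexamethasone arrays of these 3 did not overlap, with gaps of 1.27 for Ddit4, 0.86 for Eif4ebp1 and 0.78 for Sesn1 1372248_at. With Tsc1 1369362_at, which differed by -0.40 ± 0.18 (SE, limma adjusted p = 0.452), 4 of the 9 probe sets had every combination array below every dexamethasone array and 0 had every array above, where 7.35% of all probe sets lay wholly below and 7.24% wholly above. The comparison with vehicle and this one share the dexamethasone arrays, so the opposite signs are not independent of each other. Ddit4 and Sesn1 passed under 3 of the 21 alternative settings, namely a filter at the 60th percentile (limma adjusted p = 0.0416 and 0.0455), a pseudocount of 64 (0.0367 and 0.0424) and an intensity trend with robust variance (0.0253 and 0.0292). Eif4ebp1 passed under 0 of the 21.

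Within the technical subsets the Ddit4 difference was steady, at -2.38 in the arrays without common scale, -2.57 in the common-scale arrays of ordinary ratio and -2.47 between the high-ratio arrays. Eif4ebp1 varied more, with -3.08, -0.87 and -1.33, and Sesn1 1372248_at gave -0.79, -1.27 and -0.83. Each of these values sets a single array against a single array. For these 3 probe sets every combination array lay below every dexamethasone array, so a lower value within each subset was fixed in advance. Mtor differed by -1.11, -0.27 and 0.09 and so had no common sign, and its overall difference was -0.43 ± 0.32 (SE, limma adjusted p = 0.692). The second Sesn1 probe set, 1395809_at, gave -0.06, -1.74 and 1.23. Tsc1 1389776_at (0.14 ± 0.20), Tsc2 (-0.02 ± 0.17) and Rptor (-0.16 ± 0.30) had log2 differences within their SE of 0 and adjusted p of 0.879, 0.98 and 0.91 (limma). Fibroblast marker sums were 13.66 to 15.03 in the combination group and 12.15 to 14.01 under dexamethasone, while Cdh15 stood at 7.93 to 8.43 in the combination group and 9.12 to 9.72 under dexamethasone, and their part in these differences was not tested.

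**Figure D3:**
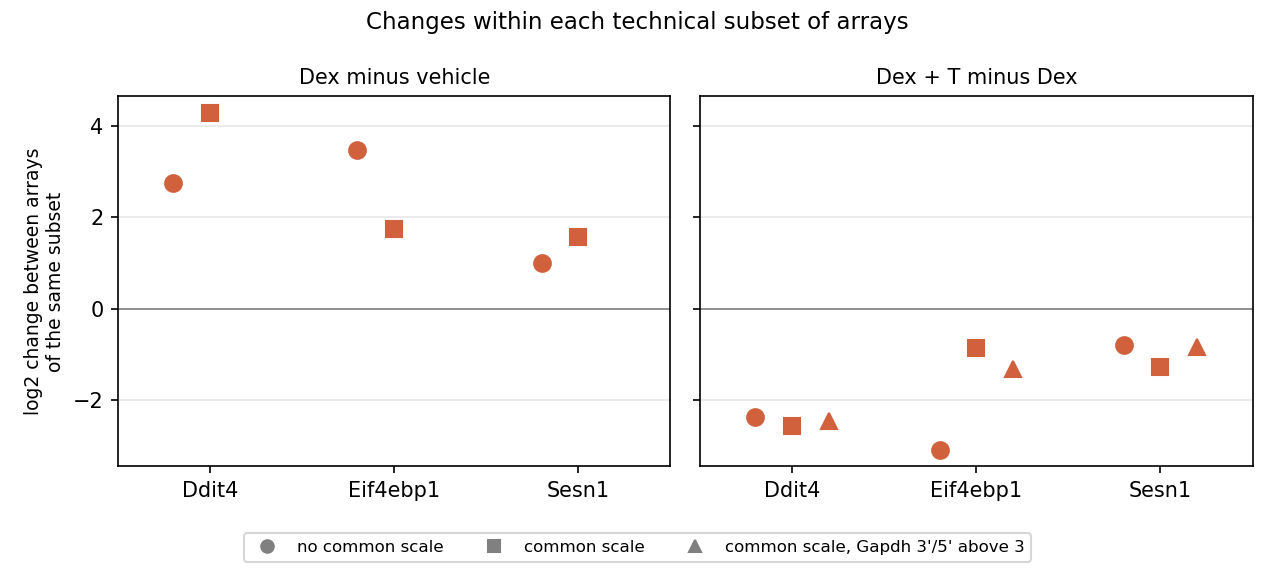
Log2 change (y axis) between arrays of the same technical subset for Ddit4, Eif4ebp1 and Sesn1 1372248_at, with dexamethasone minus vehicle on the left and the combination minus dexamethasone on the right. The 3 differences for Ddit4 between combination and dexamethasone lie at -2.38, -2.57 and -2.47, whereas those for Eif4ebp1 run from -3.08 to -0.87.

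Against vehicle, the combination group showed no call for any of the 9 probe sets, and 0% of all probe sets passed (limma; 6.12% had an unadjusted p under 0.05, against 0 of the 9, and 5 probe sets passed with array weights). Ddit4 averaged 8.19 ± 0.65 in the combination group and 7.41 ± 0.30 in vehicle muscle (SD, n = 3 each), a log2 change of 0.78 ± 0.42 (SE, 95% interval -0.17 to 1.72, limma adjusted p = 0.841). That interval reaches a 3.30-fold higher level, so the data do not show that Ddit4 stood at the vehicle level. Eif4ebp1 had a log2 change of 0.70 ± 0.38 (SE, 95% interval -0.15 to 1.56) and Sesn1 1372248_at 0.22 ± 0.19 (SE, 95% interval -0.20 to 0.63), with limma adjusted p of 0.841 and 0.9. For Ddit4, combination replicates 1 and 2 lay above the highest vehicle array and replicate 3 just below it. For all 9 probe sets the groups overlapped, where 7.53% of all probe sets lay wholly above and 5.79% wholly below. The remaining log2 changes were -0.96 ± 1.14 (Sesn1 1395809_at), 0.06 ± 0.18 and 0.20 ± 0.20 (Tsc1 1369362_at and 1389776_at), -0.04 ± 0.17 (Tsc2), 0.21 ± 0.32 (Mtor) and -0.18 ± 0.30 (Rptor), each with its SE.

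In all, the order of group means was dexamethasone, then combination, then vehicle for Ddit4, Eif4ebp1, Sesn1 1372248_at, Tsc1 1369362_at and Mtor. Only the step between dexamethasone and vehicle exceeded the threshold, and only for the first 3 of these.

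Other genes of the pathway were examined as 5 lists that hold 63 genes, of which 59 are on the array and 57 were bright enough to be tested. Under dexamethasone 0 of the 57 rose and 0 fell (limma adjusted p under 0.05), and 11 had an unadjusted p under 0.05, where 15.5% of all probe sets tested did. The list medians were 0.26 for 12 further inhibitors of mTORC1, -0.13 for 8 genes of AMPK and its kinase, 0.08 for 16 upstream drivers, 0.21 for 6 other parts of mTOR complexes and 0.15 for 15 mTORC1 outputs, beside 0.01 over all probe sets.

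Among the inhibitors, Nprl3, a subunit of the GATOR1 complex, had a log2 change of 0.65 ± 0.23 (SE, limma adjusted p = 0.222). Deptor, which encodes an inhibitor bound to mTOR, stood at 11.34, 11.30 and 11.24 in the combination animals, 10.01, 9.11 and 10.81 under dexamethasone, and 11.31, 11.35 and 11.11 in vehicle muscle. Its dexamethasone arrays were the 3 lowest, opposite to Ddit4, and its log2 change was -1.28 ± 0.36 (SE, limma adjusted p = 0.131). The REDD1 paralogue gene Ddit4l had a log2 change of 0.97 ± 0.37 (SE, limma adjusted p = 0.25). The sestrin gene Sesn2 had a log2 change of 0.11 ± 0.40 (SE, limma adjusted p = 0.923). The 4E-BP genes Eif4ebp2 and Eif4ebp3, counted in the list of mTORC1 outputs, had 0.02 ± 0.32 and 0.01 ± 0.29 (SE, limma adjusted p = 0.986 and 0.992). These 4 paralogues were named after their values had been seen.

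In the AMPK list, Prkag2, a regulatory subunit of this energy sensor, read 7.30, 6.45 and 6.82 in the combination animals, 6.13, 5.23 and 6.06 under dexamethasone, and 7.15, 7.15 and 7.01 in vehicle muscle. Its log2 change under dexamethasone was -1.30 ± 0.30 (SE, limma adjusted p = 0.079), and its 2 other probe sets gave -0.998 and -0.26. Prkab1, another subunit gene, had a log2 change of 0.58 ± 0.21 (adjusted p = 0.228). Of the drivers, the kinase gene Akt1 had -0.54 ± 0.21 and Rheb 0.43 ± 0.19, with limma adjusted p of 0.267 and 0.316, and other probe sets gave -1.08 ± 0.72 for Akt1 and -0.02 ± 0.27 for Rheb. Of the outputs, Eef2k, the kinase of elongation factor eEF2, had -0.97 ± 0.33 and Eif4e, the partner that 4E-BP1 binds, 0.52 ± 0.18 (adjusted p = 0.204 and 0.217). Other probe sets gave 0.24 and -1.30 for Eef2k and -0.09 and 1.19 for Eif4e. The lowest unadjusted p among the other complex parts belonged to Mapkap1 (0.46 ± 0.24) and Mlst8 (0.24 ± 0.18), with adjusted p of 0.417 and 0.564.

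With testosterone added, 0 of the 57 genes rose and 0 fell relative to dexamethasone, and 7 had an unadjusted p under 0.05, where 11% of all probe sets did. Rps6kb1, which encodes S6 kinase, read 10.38, 10.20 and 10.63 in the combination animals, 9.44, 9.36 and 9.70 under dexamethasone, and 10.01, 9.88 and 10.17 in vehicle muscle. The dexamethasone arrays were the 3 lowest, and the difference was 0.90 ± 0.19 (SE, limma adjusted p = 0.116), but its other probe set gave -0.08 ± 0.29. Deptor differed by 1.32 ± 0.36 and Prkag2 by 1.05 ± 0.30 (SE, limma adjusted p = 0.213 and 0.224), but the 2 other Prkag2 probe sets gave -0.12 ± 0.50 and 0.30 ± 0.29. Prkag3, the AMPK subunit typical of fast muscle, read 12.32, 12.13 and 12.54 in the combination animals, 11.42, 9.76 and 11.61 under dexamethasone, and 11.57, 11.67 and 11.61 in vehicle muscle. Its difference was 1.40 ± 0.42 (SE, limma adjusted p = 0.255), and dexamethasone replicate 2 stood far below all its other arrays. Pik3r1, a regulatory subunit of PI3-kinase, differed by -2.31 ± 0.82 and Eif4b by -0.71 ± 0.27 (adjusted p = 0.332 and 0.374), with -0.23 ± 0.21 for another Eif4b probe set. Pik3r1 read 7.18, 6.42 and 4.41 in the combination animals and 8.57, 9.63 and 6.75 under dexamethasone, so its groups overlapped. Its lowest value, 4.41, came from a high-ratio array. Nprl2 (-0.39 ± 0.20), Akt1 (0.44 ± 0.21), Telo2 (-0.32 ± 0.25) and Prr5 (0.33 ± 0.31) completed the lowest p of each list, with adjusted p of 0.524, 0.504, 0.698 and 0.777 (limma).

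Between the combination and vehicle 0 of the 57 rose and 0 fell, and 3 had an unadjusted p under 0.05, where 6.12% of all probe sets did. These 3 are no more than that share. Pik3c3, the gene of a lipid kinase of autophagy, had a log2 change of 0.83 ± 0.27 (SE, limma adjusted p = 0.802), and Rragc, of the Rag GTPases, one of -0.44 ± 0.18 (adjusted p = 0.815). Log2 changes in the other lists were at most 0.73 in size for the genes of lowest p, among them Ddit4l (0.73 ± 0.37) and Rps6kb1 (0.38 ± 0.19), whose other probe set gave -0.18 ± 0.29.

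**Figure D4:**
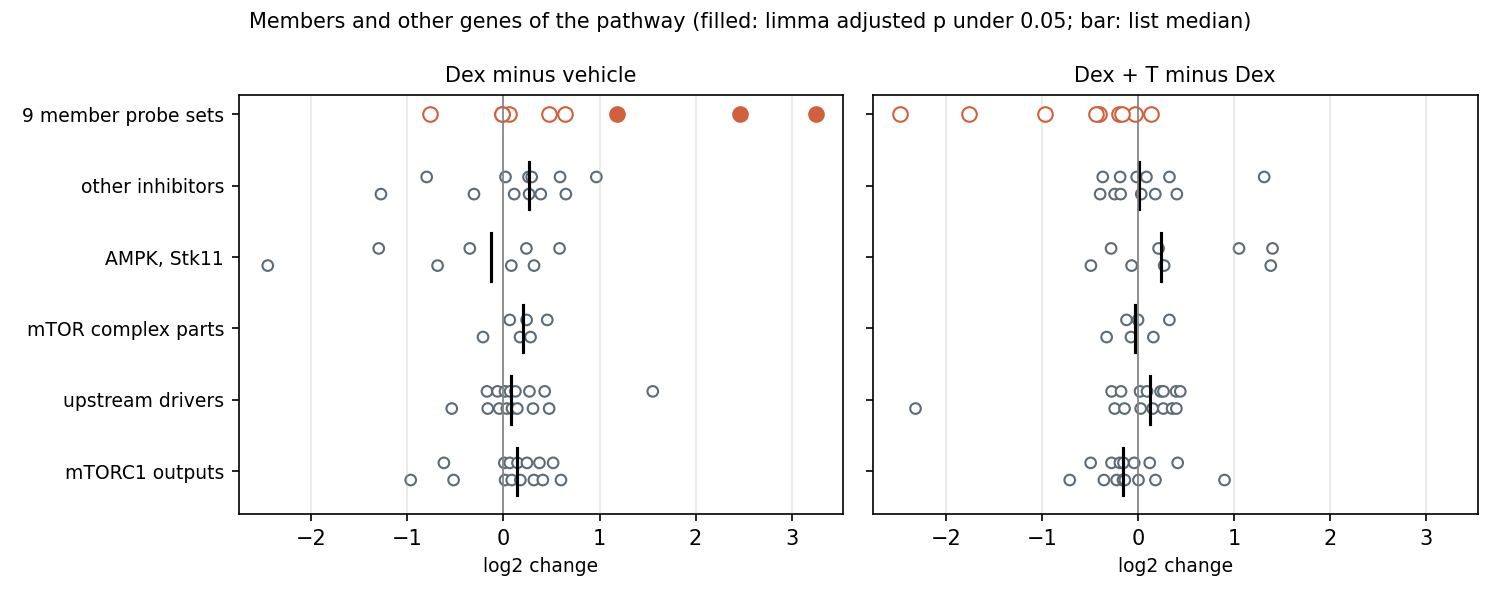
Log2 change (x axis) of the 9 member probe sets (top row) and of 57 other pathway genes in 5 lists, with a bar at each list's median, for dexamethasone minus vehicle and the combination minus dexamethasone. The filled points, those of Ddit4, Eif4ebp1 and Sesn1 at 3.25, 2.47 and 1.18, are the only ones past the threshold in either panel.

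Genes with signals most like those of the 3 risen genes were sought among 10421 others by Pearson correlation over the 9 arrays, as a description. The arrays form 3 treatment groups and share their technical subsets. Genes picked by correlation over them share the group differences by that choice, so their changes under dexamethasone are no separate result. Nearest to Ddit4 were Retreg1, a receptor for autophagy of the endoplasmic reticulum (r = 0.963), Mrps5 of the mitochondrial ribosome (r = 0.961), Tob2 (r = 0.958), the endothelin-converting enzyme gene Ece1 (r = 0.956) and the choline kinase gene Chkb (r = 0.956). Their log2 changes under dexamethasone were 1.14, 0.66, 0.92, 1.13 and 1.06, and none passed (limma adjusted p = 0.0555 to 0.119).

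Nearest to Eif4ebp1 were the lysosomal transporter gene Slc15a4 (r = 0.99), the metallothionein gene Mt2A (r = 0.985), Mkrn2 (r = 0.976), Tomm40 of the mitochondrial import pore (r = 0.973) and Nudt21 (r = 0.968). Of these, Slc15a4 and Mt2A rose under dexamethasone, by 1.59 ± 0.26 and 3.58 ± 0.43 on the log2 scale (SE, limma adjusted p = 0.0324 and 0.0166). Nearest to Sesn1 were Max, the partner of Myc (r = 0.972), Fibin (r = 0.971), the adaptor gene Sh2b3 (r = 0.965), Cnksr1 (r = 0.964) and the thiamine transporter gene Slc19a2 (r = 0.954). Fibin and Cnksr1 rose, by 1.59 ± 0.28 and 1.19 ± 0.23 (SE, limma adjusted p = 0.0378 and 0.0482). The 3 sets of 5 genes had no member in common, and whether lists so short would differ in any case was not tested.

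**Figure D5:**
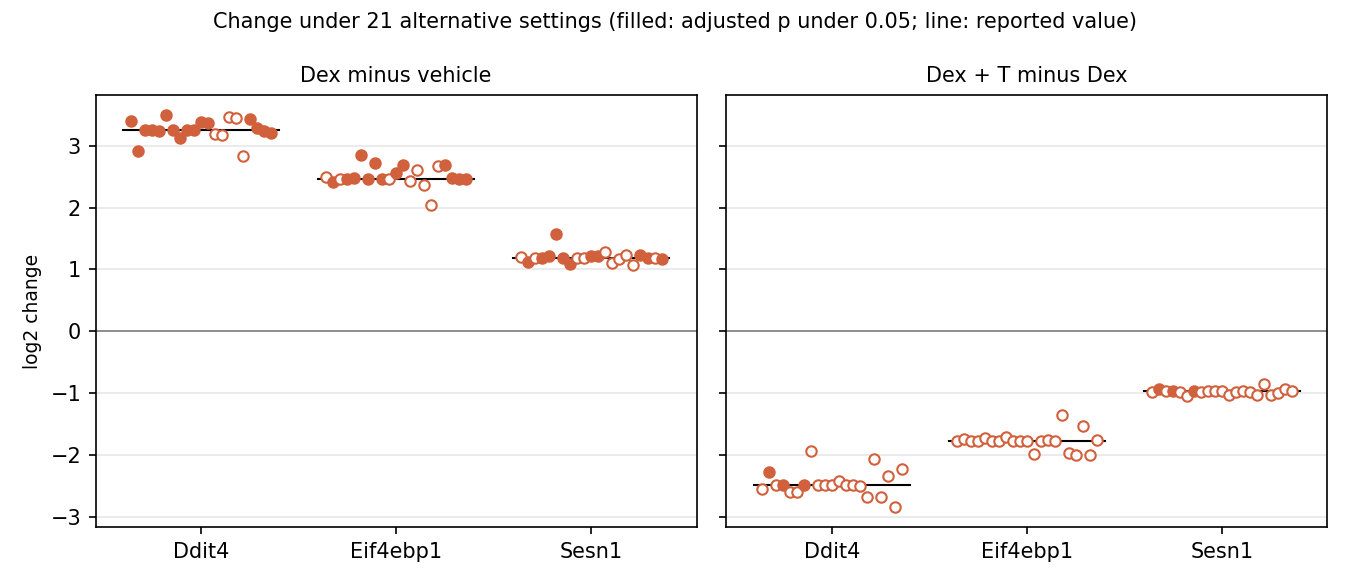
Log2 change (y axis) of Ddit4, Eif4ebp1 and Sesn1 1372248_at under the 21 alternative settings, filled where the limma adjusted p was under 0.05, with a line at the reported value. For dexamethasone minus vehicle the values run from 2.84 to 3.50, 2.05 to 2.84 and 1.07 to 1.58, with 16, 13 and 11 of the 21 past the threshold.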

How the data were processed

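Affymetrix rat expression arrays measured total RNA of 9 gastrocnemius muscles, per the labels' protocols. The authors deposited linear intensity values, 1 per probe set; no source used here gives the signal algorithm or its scaling. Array medians spanned 1.82 on the log2 scale, so log2(intensity + 16) was quantile normalized (limma 3.58.1, R 4.3.3) without the 57 control probe sets, and the dimmest 40% of probe sets by mean signal were set aside. Fold changes on this scale understate changes of dim probe sets. The other 18625 were fitted jointly over the 9 arrays with 1 mean for each group (lmFit, eBayes) and p-values were Benjamini-Hochberg adjusted within each comparison at 0.05. The fit was tested on simulated data. The number of arrays limits the precision.

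Symbols came from the platform annotation; for other genes they were updated through gene IDs to GRCr8 (20758 of 20826 with 1 symbol). A gene other than the members was represented by its brightest tested probe set. Arrays were split by deposited trimmed mean (500 within 1% or not) and a Gapdh 3' to 5' ratio above 3.

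The members and lists were chosen with earlier results of these data known. All member probe sets are named. From each pathway list the genes past the threshold, up to 4, or else the 2 of lowest p were named, and for each member past the threshold the 5 genes of highest correlation. Further genes are marked as chosen after their values were seen. Same-numbered animals are not stated to be paired, so the fit has no block. The correlations of their deviations ran from -0.20 to 0.59, with 5 of 9 above 0.1. Alternatives were other pseudocounts, filters, scalings, variance models, blocks and omitted arrays.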

Additional observations from a re-analysis of the deposited data

How the results depend on the processing

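Of the 12 settings other than omitted arrays and the 9 omissions, all 21 kept the sign of Ddit4, Eif4ebp1 and Sesn1 1372248_at in all 3 comparisons. For dexamethasone against vehicle, Eif4ebp1 missed the threshold with no filter (2.47), a pseudocount of 1 (2.49) and the replicate block (2.47), and Sesn1 with no filter (1.18), a pseudocount of 1 (1.20), the 2 groups alone (1.18) and the replicate block (1.18). Sole omissions moved the log2 changes over 2.84 to 3.46 (Ddit4), 2.05 to 2.69 (Eif4ebp1) and 1.07 to 1.28 (Sesn1). For the combination against dexamethasone, Ddit4 passed with a filter at the 60th percentile (-2.47), an intensity trend (-2.47) and a pseudocount of 64 (-2.27), and Sesn1 did so at -0.97, -0.97 and -0.93. Omissions there gave -2.84 to -2.06, -1.995 to -1.34 and -1.02 to -0.85, and against vehicle 0.40 to 0.98, 0.47 to 0.94 and 0.14 to 0.31. Member probe sets past the threshold under dexamethasone numbered 1 with no filter, a pseudocount of 1 or the replicate block and 0 to 3 with an array omitted, and for the combination against dexamethasone 2 with the 60th percentile filter, the trend or a pseudocount of 64. The cause of these shifts was not tested.

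Over all probe sets, calls for dexamethasone against vehicle numbered 196 as reported, 616 with array weights, 469 with the 60th percentile filter, 510 with the trend, 130 with medians set equal, 48 with no filter, 123 with 2 groups, 54 and 414 with pseudocounts of 1 and 64, 13 with the replicate block, 460 without the high-ratio arrays and 1 to 340 with an array omitted. For the combination against dexamethasone they numbered 21 as reported, 47 with array weights, 83 with the 60th percentile filter, 149 with the trend, 6 with medians set equal, 0 with no filter, 2 groups or the replicate block, 5 and 102 with pseudocounts of 1 and 64, 39 without the high-ratio arrays and 0 to 67 with an array omitted. Against vehicle the combination had 5 calls with array weights. Replicate numbers are not stated to pair the animals, and the check made did not settle whether they do. Correlations between the deviations of same-numbered animals ran from -0.20 to 0.59, with 5 of 9 above 0.1. Under the replicate block the limma adjusted p for dexamethasone against vehicle was 0.0595 for Eif4ebp1 and 0.0599 for Sesn1 1372248_at. Setting medians equal moved the median of all probe sets to 0.20 under dexamethasone and 0.19 in the combination against vehicle, with 107 higher and 23 lower calls against 106 and 90 as reported.

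Values of probe sets that never passed turned sign as follows. Under dexamethasone, Rptor turned with array weights (0.0204), medians set equal (0.23) and omissions (-0.18 to 0.10). Tsc1 1389776_at turned without the high-ratio arrays (-0.0163) and with omissions (-0.047 to 0.21), and Tsc2 with medians set equal (0.32), the subset block (0.0078), without the high-ratio arrays (0.0296) and with omissions (-0.0878 to 0.0655). Sesn1 1395809_at turned with the subset block (0.30), without the high-ratio arrays (0.68) and with omissions (-1.71 to 0.70). Between combination and dexamethasone, Sesn1 1395809_at turned with array weights (0.0343), a pseudocount of 1 (0.30) and omissions (-1.64 to 0.75), and with omissions Rptor (-0.35 to 0.17), Tsc1 1389776_at (-0.00686 to 0.22) and Tsc2 (-0.0735 to 0.045). Between combination and vehicle, Mtor turned with array weights (-0.00062), without the high-ratio arrays (-0.13) and with omissions (-0.13 to 0.42), and Rptor with medians set equal (0.0364) and omissions (-0.37 to 0.16). Sesn1 1395809_at turned there with the subset block (0.11), Tsc1 1369362_at with a common trimmed mean (-0.16) and omissions (-0.016 to 0.14), and Tsc2 with medians set equal (0.24) and omissions (-0.0869 to 0.0408). With no filter, the 60th percentile filter, a common trimmed mean or medians set equal, 0 pathway genes passed in any comparison, and with medians set equal the AMPK list's median under dexamethasone was 0.0006.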
